A study of Mus musculus with 8 samples.

Results

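The genes described here are 39 genes of the interferon response and of antigen presentation on MHC class I, taken from a list and grouped by role. This list and the others below were chosen with earlier results of these data known. Their shares beside those of all genes are therefore description and not tests. Of the 39, 32 had a probe set that names no other gene, out of 17097 genes measured, and the other 7 (Oas1a, Bst2, Ifi44, Isg15, Tap1, Tap2 and B2m) were not analysed here. They were measured in dermal fibroblasts of female mice given either normal chow diet (ND) or a diet high in fat (HFD) over 6 months from the age of 2 months, and all killed on 1 day. The labels name no strain and no diet composition. The dermis was freed of the layer beneath it and digested, and 10000 cells per sample were sorted as positive for Pdgfra and CD34 and negative for CD45, CD117, CD24, CD31 and EpCam. The cells therefore represent the CD34+ part of the dermal fibroblasts, and their RNA was amplified over 20 cycles before hybridisation to mouse arrays. ND 1 to 3 were compared with HFD 1 to 4, while ND 4, marked as excluded at quality control with no reason stated, is given beside the results. Nothing in the labels beyond the specimen numbers and a design text of 4 per diet says that the specimens are separate mice, and if they are not, the p-values measure only technical spread.

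Cells detect viral or misplaced nucleic acid with sensors such as RIG-I, encoded by Ddx58, and MDA5, encoded by Ifih1, and then secrete type I interferon. Interferon binds the receptor chains Ifnar1 and Ifnar2, and transcription factors such as Stat2 and Irf9 then switch on interferon-stimulated genes through a DNA element called ISRE. Their products block viral RNA, modify proteins with ISG15 or ADP-ribose, and raise the loading and display of peptides on MHC class I. Uninfected fibroblasts keep a low, tonic level of this programme.

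Of the 32 measured genes, 3 fell in HFD fibroblasts and 1 rose, and 28 did not pass. The receptor chain Ifnar2 fell by 0.49 on the log2 scale, the RNA sensor Ddx58 fell by 0.46 and the ubiquitin ligase Dtx3l fell by 1.04, while Parp14, an ADP-ribosyltransferase, rose by 0.43. The threshold was an adjusted p of 0.05 in limma, a linear model with moderated variances, with p-values adjusted by Benjamini-Hochberg over all genes. The 4 genes are 12.5% of those measured, where 5.35% of all genes passed in either direction, 2.73% lower and 2.62% higher. At an unadjusted p under 0.05, 9 of the 32 were lower (28.1%, against 9.83% of all genes) and 4 were higher (12.5%, against 12.3%). The median difference was −0.05 log2 over the 32 genes and 0.02 over all genes, with 18 of the 32 below 0 (56.2%, against 43.8% of all genes). The differences therefore went both ways, from −1.04 to 0.43.

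**Figure D1:**
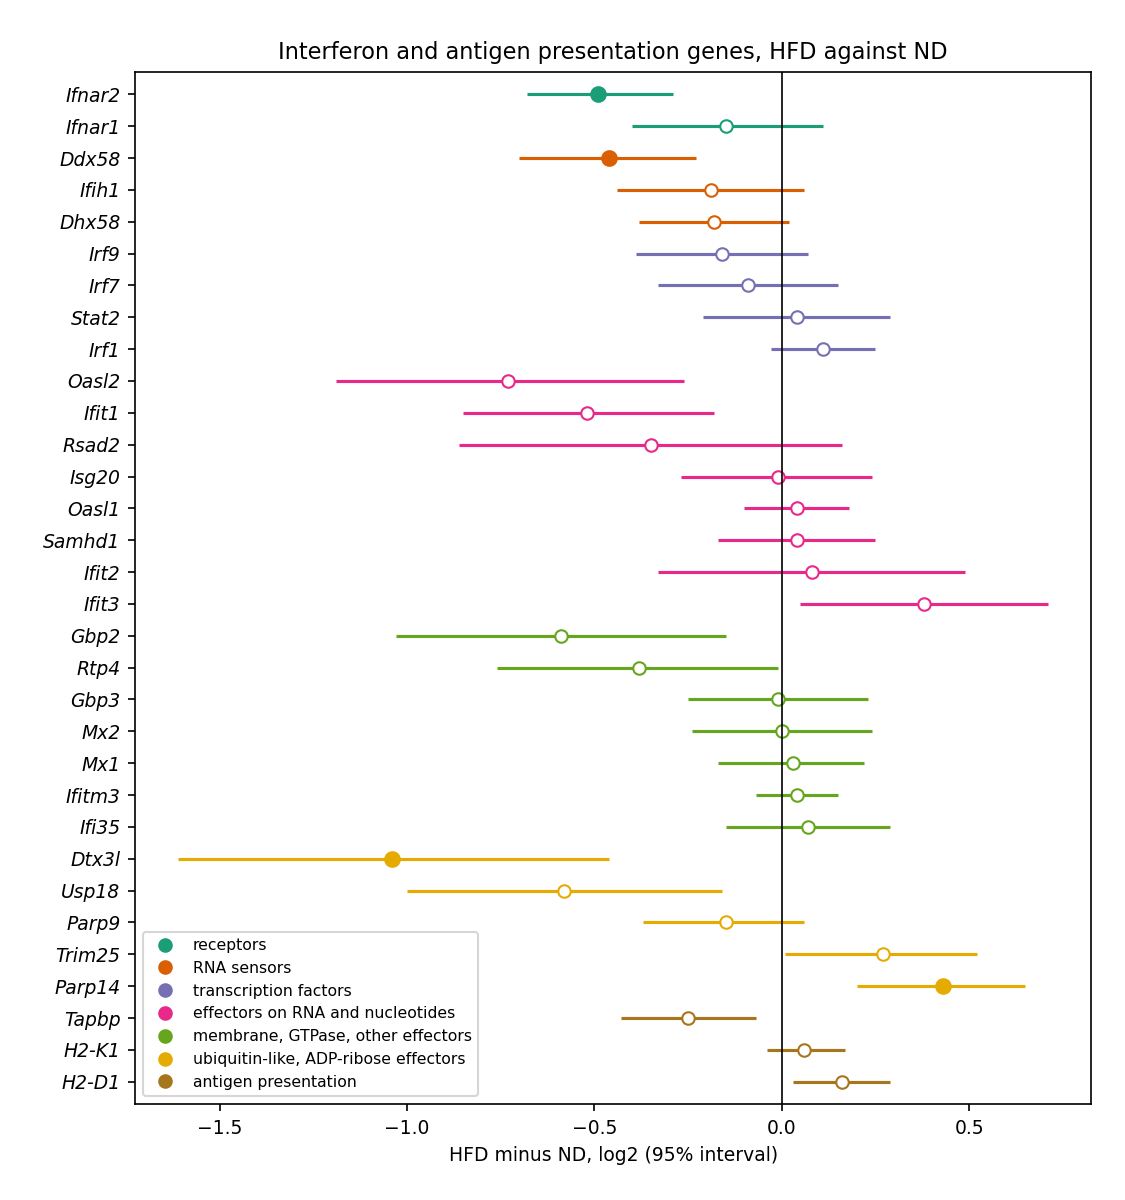
Difference between HFD and ND for each of the 32 measured genes on the log2 scale, with points for the limma estimate, lines for its 95% interval, colours for the role, and filled points for the 4 genes past an adjusted p of 0.05. Both receptors and all 3 RNA sensors lie left of 0, and the effectors lie on both sides.

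Those 4 calls depended on single arrays. Without ND 1, ND 2 or ND 3 the count was 3, 1 and 0 respectively. Without HFD 1, HFD 2, HFD 3 or HFD 4 it was 4, 0, 0 and 0. The 4 genes without HFD 1 were Ifnar2, Ddx58, Dtx3l and Tapbp, all lower, and Parp14 was not among them. Where the count was 0, without ND 3, HFD 2, HFD 3 and HFD 4, 8, 10, 10 and 11 genes had an unadjusted p under 0.05 in limma. With ND 4 included the count was 0 (limma, 9 at an unadjusted p under 0.05). The counts over all genes moved likewise, from 914 to between 6 and 1072 when 1 array was left out, and to 6 with ND 4.

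Signs of RNA quality and of other cells also differed between the arrays. Control probe sets at the 3′ end of Gapdh and Actb were compared with those at the 5′ end. The 3′ minus 5′ difference was −0.29, −0.335 and −0.18 log2 in ND 1, 2 and 3 and between −0.44 and −0.375 in HFD. These 7 arrays did not overlap by diet, while ND 4 lay just above the HFD range at −0.37. With the 3′ minus 5′ difference as a covariate, 0 of the 32 genes passed (limma, 2 at an unadjusted p under 0.05). The estimates were −0.37 for Ifnar2, −0.20 for Ddx58, −0.33 for Dtx3l and 0.37 for Parp14. Of 9 genes that did not pass without it, the same covariate took Oasl2 from −0.73 to −0.08, Ifit1 from −0.52 to −0.03, Usp18 from −0.58 to −0.05 and Gbp2 from −0.59 to −0.10. Ifit3 went from 0.38 to 0.18, Tapbp from −0.25 to −0.15 and H2-D1 from 0.16 to 0.07. Trim25 turned from 0.27 to −0.05, and Irf1 moved away from 0, from 0.11 to 0.18. All 11 measured keratinocyte markers differed upward in HFD, and 0 of them passed (limma, 3 at an unadjusted p under 0.05, or 27.3%, against 12.3% of all genes higher). Their mean level was 6.81 to 7.41 in ND 1 to 3, 6.93 to 8.38 in HFD and 7.82 in ND 4. With that mean as a covariate, 0 of the 32 genes passed (limma, 8 at an unadjusted p under 0.05), with estimates of −0.39, −0.35, −0.92 and 0.48 in the same order. Markers of immune cells, which also express these genes, were below the median gene level in 6 of 8 myeloid, 4 of 4 dendritic, 7 of 8 lymphoid and 4 of 4 mast cell genes, with Cd68, Csf1r and Cd79a above it. Ptprc, which encodes CD45, was at 4.08 in ND and 4.03 in HFD, and the mean of 8 myeloid markers lay between 5.80 and 5.92 on the 7 arrays. The 4 dendritic cell markers lay between 6.38 and 6.56, the 8 lymphoid markers between 5.55 and 5.68, and the 4 mast cell markers between 4.31 and 4.36, with both diets overlapping in each and no marker past the threshold (limma, 0 at an unadjusted p under 0.05). The fibroblast markers Cd34 (12.08 in ND, 12.10 in HFD) and Col1a1 (13.20 and 13.23) were high, though Pdgfra was low on its probe set (5.92 and 6.27). The proteoglycan gene Lum fell by 0.33 (limma adjusted p = 0.0358), the only 1 of 10 fibroblast markers to pass. Because the 3′ minus 5′ difference separated the 7 fitted arrays by diet, the fit with that covariate cannot tell it apart from diet. The part of RNA quality and of other cells in the results below was not tested. In bulk samples, fewer cells of a type and less RNA per cell cannot be told apart.

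The promoters of these genes were searched for the core letters of DNA elements read by interferon-activated factors. In the 250 bases before the start, 10 of the 31 genes with an entry in the RefSeq promoter table (32.3%) held an ISRE core, 2 copies of GAAA with any 2 bases between them, on either strand, against 3.48% of 17492 protein-coding genes. The GAS core TTCNNNGAA, an element of the interferon gamma response that reads the same on both strands, was in 7 of the 31 (22.6%, against 7.65%). The 10 genes with an ISRE core were B2m, Bst2, Gbp2, Gbp3, Ifit1, Ifit3, Isg15, Oas1a, Rsad2 and Stat2. Of these, 6 were measured, and they differed by −0.59 (Gbp2), −0.52 (Ifit1), −0.35 (Rsad2), −0.01 (Gbp3), 0.04 (Stat2) and 0.38 (Ifit3). Their median difference was −0.18, with 4 of 6 below 0. The 19 measured genes without an ISRE core had a median of −0.01, with 10 of 19 below 0, and included Ifnar2, Ddx58 and Dtx3l. Dhx58, Mx1, Mx2, Rtp4, Usp18, Parp9, Parp14 and Tap2 had no promoter entry and are in neither group. A match is a description and no match says only that these letters are not in this window. The following 4 stretches, from RefSeq on GRCm38.p6, are read 5′ to 3′ up to the base before the start. They set the 2 measured genes with an ISRE core and the most negative differences beside the receptor and the sensor that fell. ISRE and GAS cores are in capitals.
Ifit1 (GRCm38.p6, chr19:34640639-34640888, plus strand): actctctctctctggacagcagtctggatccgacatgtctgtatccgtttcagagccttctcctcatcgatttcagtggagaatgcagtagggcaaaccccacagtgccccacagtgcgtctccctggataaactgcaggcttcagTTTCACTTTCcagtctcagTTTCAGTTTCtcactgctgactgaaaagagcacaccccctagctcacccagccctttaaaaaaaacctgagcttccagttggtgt
Gbp2 (GRCm38.p6, chr3:142620413-142620662, plus strand): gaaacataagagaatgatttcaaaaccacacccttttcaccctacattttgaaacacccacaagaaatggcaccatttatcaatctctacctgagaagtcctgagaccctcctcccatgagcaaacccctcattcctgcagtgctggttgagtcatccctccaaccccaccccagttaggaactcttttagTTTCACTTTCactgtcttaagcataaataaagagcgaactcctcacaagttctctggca
Ddx58 (GRCm38.p6, chr4:40239826-40240075, minus strand): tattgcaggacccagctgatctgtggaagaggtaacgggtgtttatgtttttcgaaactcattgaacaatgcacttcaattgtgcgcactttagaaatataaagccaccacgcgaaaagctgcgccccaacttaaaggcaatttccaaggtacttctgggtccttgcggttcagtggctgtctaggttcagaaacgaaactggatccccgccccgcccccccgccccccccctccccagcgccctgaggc
Ifnar2 (GRCm38.p6, chr16:91372533-91372782, plus strand): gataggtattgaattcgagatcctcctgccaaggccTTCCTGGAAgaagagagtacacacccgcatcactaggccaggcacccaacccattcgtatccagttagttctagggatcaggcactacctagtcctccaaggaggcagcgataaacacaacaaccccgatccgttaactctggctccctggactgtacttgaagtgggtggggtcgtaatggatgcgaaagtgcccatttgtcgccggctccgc
In Ifit1 a pair of ISRE cores began 104 and 85 bases before the start, and in Gbp2 a single one began 59 bases before it, all on the opposite strand, so that they read as TTTC copies here. The Ddx58 stretch held neither core, and the Ifnar2 stretch held a GAS core 214 bases before the start.

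Both chains of the type I interferon receptor had lower means in HFD (100% below 0, against 43.8% of all genes). Of the 2, Ifnar2 passed (50%, against 5.35% of all genes). Ifnar2, the chain that binds interferon most tightly, was at 10.41, 10.44 and 10.56 log2 in ND 1, 2 and 3 and at 10.15, 9.90, 9.91 and 9.97 in HFD 1 to 4. Every HFD array lay below every ND array, and ND 4, at 10.02, lay among the HFD arrays. The mean went from 10.47 ± 0.08 (SD, n = 3) to 9.98 ± 0.12 (SD, n = 4), which is 1.40-fold lower (log2 change −0.49, SE 0.09, limma adjusted p = 0.0242). Without ND 3, HFD 2, HFD 3 or HFD 4 the adjusted p was 0.0952, 0.0543, 0.068 and 0.0744 respectively in limma, with changes of −0.48 to −0.44. Ifnar1, the chain that recruits the kinase Tyk2, was at 8.98, 8.65 and 9.14 in ND and between 8.73 and 8.85 in HFD. The ND arrays spread around the HFD arrays on both sides, and the difference was −0.15 (SE 0.12, limma adjusted p = 0.519).

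The probe sets of Ifnar2 went in opposite directions. A dim probe set of the same gene was at 5.88, 6.18 and 5.97 in ND 1, 2 and 3 and at 6.45, 6.41, 6.72 and 6.71 in HFD 1 to 4, with no overlap between the diets and ND 4 within the HFD range at 6.56. It was higher in HFD by 0.56 log2 (SE 0.11, limma adjusted p = 0.0324 over all 45141 probe sets, of which 3.54% passed, 1.93% lower). Without ND 1, ND 3, HFD 2, HFD 3 or HFD 4 its adjusted p was 0.0595, 0.131, 0.056, 0.0851 and 0.0959 in limma, and with ND 4 it was 0.221. The dim minus bright difference was −4.53, −4.26 and −4.59 in ND 1, 2 and 3 and between −3.70 and −3.19 in HFD, with ND 4 at −3.46. The third probe set differed by −0.28 (SE 0.18, limma adjusted p = 0.423 over all probe sets). Ifnar2 is known to give a membrane-bound and a soluble receptor by alternative splicing, and the transcript that each probe set detects was not determined. Averaging the 3 probe sets left a difference of −0.07 (limma adjusted p = 0.764), so Ifnar2 passed as lower on its brightest probe set alone.

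**Figure D2:**
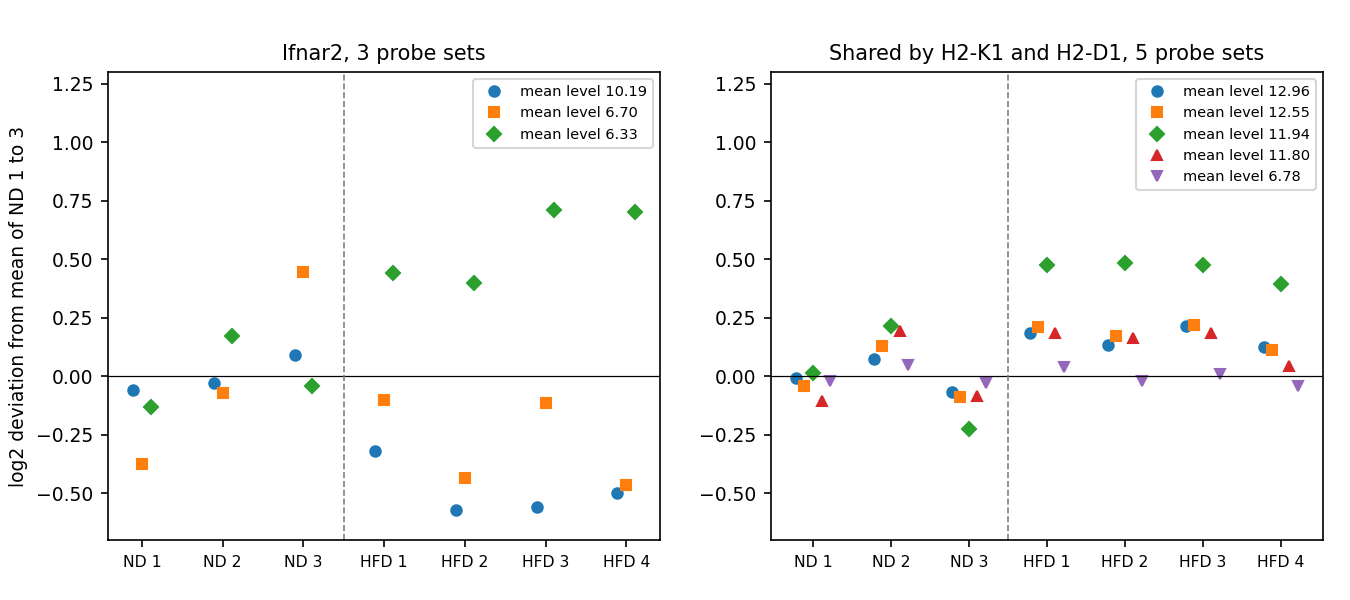
Deviation of each array from the mean of ND 1 to 3 on the log2 scale for the 3 probe sets of Ifnar2 (left) and the 5 probe sets shared by H2-K1 and H2-D1 (right), with 1 symbol per probe set, named by its mean level over the 7 arrays. The bright Ifnar2 probe set lies below 0 on all 4 HFD arrays and the dimmest lies above 0 on all 4, and 1 shared MHC class I probe set (mean level 11.94) stands above the others in HFD.

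All 3 cytosolic RNA sensors had lower means in HFD (100% below 0, against 43.8% of all genes). Of these, 1 passed (33.3%, against 5.35% of all genes). Ddx58, which encodes the sensor RIG-I of short and end-modified RNA, was at 10.11, 10.21 and 10.39 in ND 1, 2 and 3 and at 9.96, 9.70, 9.82 and 9.61 in HFD 1 to 4. The diets did not overlap, and ND 4, at 9.86, lay within the HFD range. Ddx58 fell by 0.46 (SE 0.11, limma adjusted p = 0.0385), from 10.24 ± 0.14 (SD, n = 3) to 9.77 ± 0.15 (SD, n = 4), or 1.38-fold. Without ND 2, ND 3, HFD 2, HFD 3 or HFD 4 the adjusted p was 0.0694, 0.154, 0.0855, 0.0848 and 0.106 in limma. Its dimmer probe sets had the same sign, at −0.11 (SE 0.12) and −0.22 (SE 0.10), and neither passed. Ifih1, which encodes the long-RNA sensor MDA5, differed by −0.19 (SE 0.11, limma adjusted p = 0.369), with 8.46 to 8.71 in ND and 8.20 to 8.58 in HFD. Dhx58, which encodes the regulator LGP2, differed by −0.18 (SE 0.09, limma adjusted p = 0.268), with 6.41 to 6.52 in ND and 6.10 to 6.43 in HFD. Dhx58 was below the median gene level of 6.77 on every array. For both Ifih1 and Dhx58, the highest HFD arrays reached into the ND range, and HFD 4 was lowest.

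None of the 4 transcription factors passed (limma, 0 also at an unadjusted p under 0.05), and their differences lay between −0.16 and 0.11. Irf1, which drives the response to interferon gamma, was at 11.63, 11.66 and 11.72 in ND and at 11.70, 11.81, 11.86 and 11.74 in HFD. Each HFD array was above the ND mean, but HFD 1 lay inside the ND range, and the difference was 0.11 (SE 0.06, limma adjusted p = 0.361). Irf7, the amplifier of type I interferon production, differed by −0.09 (SE 0.11), and Irf9 and Stat2, subunits of the ISRE-binding complex, by −0.16 (SE 0.10) and 0.04 (SE 0.11). The other probe set of Stat2 differed by −0.36 (SE 0.16, limma adjusted p = 0.241 over all probe sets), so the probe sets of Stat2 do not give 1 direction.

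Among the effectors, 20 of 24 were measured, and 1 rose and 1 fell (10%, against 5.35% of all genes). On either side of 0 there were 10 (50% below 0, against 43.8% of all genes). At an unadjusted p under 0.05, 6 were lower (30%, against 9.83% of all genes) and 3 higher (15%, against 12.3%). In 5 of the 20 every HFD array lay below every ND array (25%, against 7.99% of all genes), and in 1 every HFD array lay above (5%, against 9.95%).

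**Figure D3:**
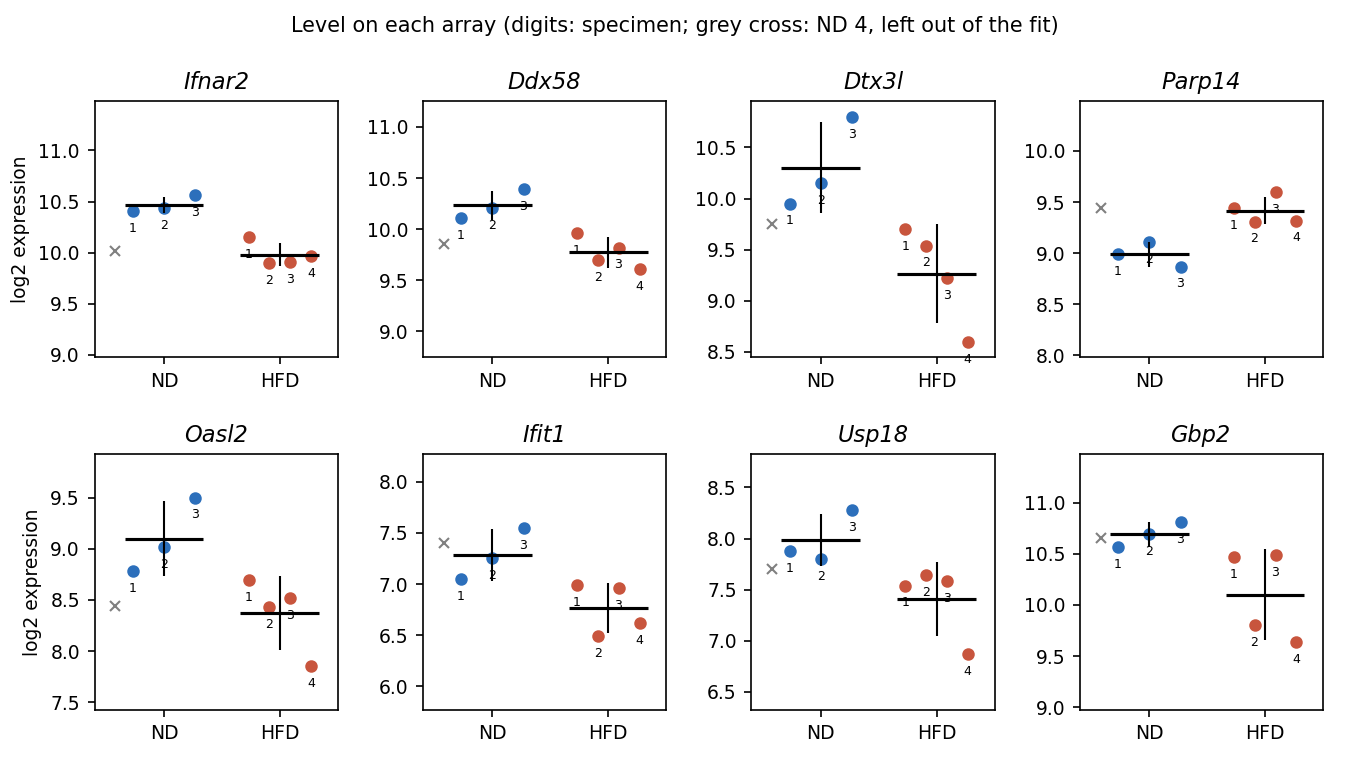
Level of 8 genes on each array on the log2 scale, with ND in blue, HFD in red, specimen numbers beside the points, bars for the mean and its SD (n = 3 and n = 4), and a grey cross for ND 4; the panels differ in offset and share their span. In Ddx58, Dtx3l, Oasl2, Usp18 and Gbp2, ND 3 is the highest and HFD 4 the lowest of the 7 arrays. ND 4 lies among the HFD arrays for Ifnar2, Ddx58, Parp14 and Oasl2.

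The 5 measured ubiquitin-like and ADP-ribosylation enzymes held both effectors that passed (40%, against 5.35% of all genes). Dtx3l, a ubiquitin ligase that works as a pair with Parp9, was at 9.95, 10.15 and 10.80 in ND 1, 2 and 3 and at 9.70, 9.54, 9.22 and 8.60 in HFD 1 to 4. The diets did not overlap, but the spread within each was wide, with ND 3 highest and HFD 4 lowest, and ND 4 was at 9.75, between the diets. Dtx3l fell by 1.04 (SE 0.26, limma adjusted p = 0.0487), from 10.30 ± 0.44 (SD, n = 3) to 9.27 ± 0.49 (SD, n = 4), or 2.05-fold. The adjusted p in limma was 0.0822, 0.201, 0.0706, 0.111 and 0.0992 without ND 2, ND 3, HFD 2, HFD 3 or HFD 4. It was 0.0511 with quantile normalization, 0.0521 with median centring, 0.0693 without the variance trend, 0.0702 with the robust fit and 0.0715 with probe sets averaged per gene.

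In the RefSeq gene order Dtx3l lies between Parp14 and Parp9. Of these 3 neighbours, Dtx3l and Parp9 had lower means in HFD and Parp14 had a higher mean. Parp9, an ADP-ribosyltransferase partner of Dtx3l, was at 7.91, 8.04 and 7.89 in ND and at 7.92, 7.86, 7.76 and 7.63 in HFD. HFD 1 lay inside the ND range, and the difference was −0.15 (SE 0.10, 95% interval −0.37 to 0.06, limma adjusted p = 0.394). Parp14 was at 8.99, 9.11 and 8.87 in ND 1, 2 and 3 and at 9.44, 9.31, 9.60 and 9.32 in HFD 1 to 4. Every HFD array lay above every ND array, and ND 4, at 9.44, lay within the HFD range. Parp14 rose by 0.43 (SE 0.10, limma adjusted p = 0.0428), from 8.99 ± 0.12 (SD, n = 3) to 9.42 ± 0.14 (SD, n = 4), or 1.34-fold. Its adjusted p in limma was above the threshold without any 1 of the 7 arrays, from 0.0548 without ND 2 to 0.163 without ND 3, with changes of 0.37 to 0.49. It was 0.071 without ND 1 and 0.0588, 0.0678, 0.103 and 0.0921 without HFD 1, 2, 3 and 4. Its dimmer probe set differed by 0.06 (SE 0.08). The differences between these 3 genes were not tested.

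Usp18, the protease that removes ISG15 and restrains the receptor through Ifnar2, was at 7.88, 7.80 and 8.28 in ND and at 7.54, 7.64, 7.58 and 6.87 in HFD. The diets did not overlap, with HFD 4 far below the others and ND 4 between them at 7.70, and the difference of −0.58 (SE 0.19) did not pass (limma adjusted p = 0.0994). Trim25, the ubiquitin ligase that activates RIG-I, was at 7.46, 7.74 and 7.28 in ND and at 7.64, 7.83, 7.84 and 7.74 in HFD. Its HFD arrays were all above the ND mean but overlapped ND 2, and the difference was 0.27 (SE 0.12, limma adjusted p = 0.202). With the 3′ minus 5′ covariate the sign of Trim25 turned (−0.05).

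Of the 8 measured effectors that act on RNA or nucleotides, 0 passed. In limma, 2 were lower (25%, against 9.83% of all genes) and 1 higher (12.5%, against 12.3%) at an unadjusted p under 0.05. Oasl2, a relative of the oligoadenylate synthetases, was at 8.78, 9.02 and 9.50 in ND 1, 2 and 3 and at 8.69, 8.43, 8.52 and 7.85 in HFD 1 to 4. HFD 1 and ND 1 were close, though the diets did not overlap, ND 4, at 8.44, lay within the HFD range, and the difference of −0.73 (SE 0.21, 95% interval −1.19 to −0.26) did not pass (limma adjusted p = 0.07). Oasl1, its neighbour in the RefSeq gene order, was low on every array, from 4.61 to 4.89.

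The 3 Ifit genes, whose proteins bind viral RNA, did not share a direction. Ifit1 was at 7.05, 7.25 and 7.55 in ND 1, 2 and 3 and at 6.99, 6.49, 6.96 and 6.62 in HFD 1 to 4. Its diets did not overlap and ND 4, at 7.40, lay with ND, but the difference of −0.52 (SE 0.15) did not pass (limma adjusted p = 0.0723). Ifit3 was at 7.99, 7.68 and 7.47 in ND and at 7.95, 8.32, 8.23 and 7.87 in HFD. Its HFD arrays were all above the ND mean, ND 1 and, at 8.11, ND 4 overlapped them, and the difference was 0.38 (SE 0.15, limma adjusted p = 0.162). Ifit2 differed by 0.08 (SE 0.18), with ND from 5.86 to 6.52 and HFD from 5.96 to 6.54. Among genes tested with fewer dim ones, those at or above the median gene level, Oasl2 and Ifit1 passed (limma adjusted p = 0.0437 and 0.0435), which each did in 1 of 18 alternatives. Their differences were −0.08 and −0.03 with the 3′ minus 5′ covariate.

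The remaining genes of this class differed little or varied widely within a diet. Rsad2, which encodes viperin, an enzyme that makes a chain-terminating nucleotide, ranged from 6.91 to 7.92 in ND and from 6.69 to 7.38 in HFD (−0.35, SE 0.23). Samhd1, which degrades deoxynucleotides, differed by 0.04 (SE 0.09, 95% interval −0.17 to 0.25), and the exonuclease Isg20 by −0.01 (SE 0.11, 95% interval −0.27 to 0.24).

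Of the 7 measured membrane proteins, GTPases and other effectors, 0 passed. In limma, 2 were lower (28.6%, against 9.83% of all genes) and 0 higher (against 12.3%) at an unadjusted p under 0.05. Gbp2, a GTPase that coats intracellular pathogens, was at 10.57, 10.69 and 10.81 in ND 1, 2 and 3 and at 10.47, 9.80, 10.49 and 9.64 in HFD 1 to 4. HFD 2 and HFD 4 were low, while HFD 1 and HFD 3 lay just under ND 1, and ND 4, at 10.66, lay with ND. The difference was −0.59 (SE 0.20, limma adjusted p = 0.111), and −0.44 (SE 0.18) on the other probe set, which had the same 2 arrays low. Rtp4, a chaperone of receptor traffic, differed by −0.38 (SE 0.17, limma adjusted p = 0.217), with HFD 2 lowest and HFD 4 next. Ifitm3, which stops viral entry at endosomes, was nearly the same on all arrays, from 12.47 to 12.59, with a difference of 0.04 (SE 0.05, 95% interval −0.07 to 0.15). The dynamin-like GTPase Mx2 differed by 0.00 (SE 0.11), Mx1 by 0.03 (SE 0.09), Gbp3 by −0.01 (SE 0.11) and Ifi35 by 0.07 (SE 0.10). Mx1 and Gbp3 were below the median gene level of 6.77 on every array.

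**Figure D4:**
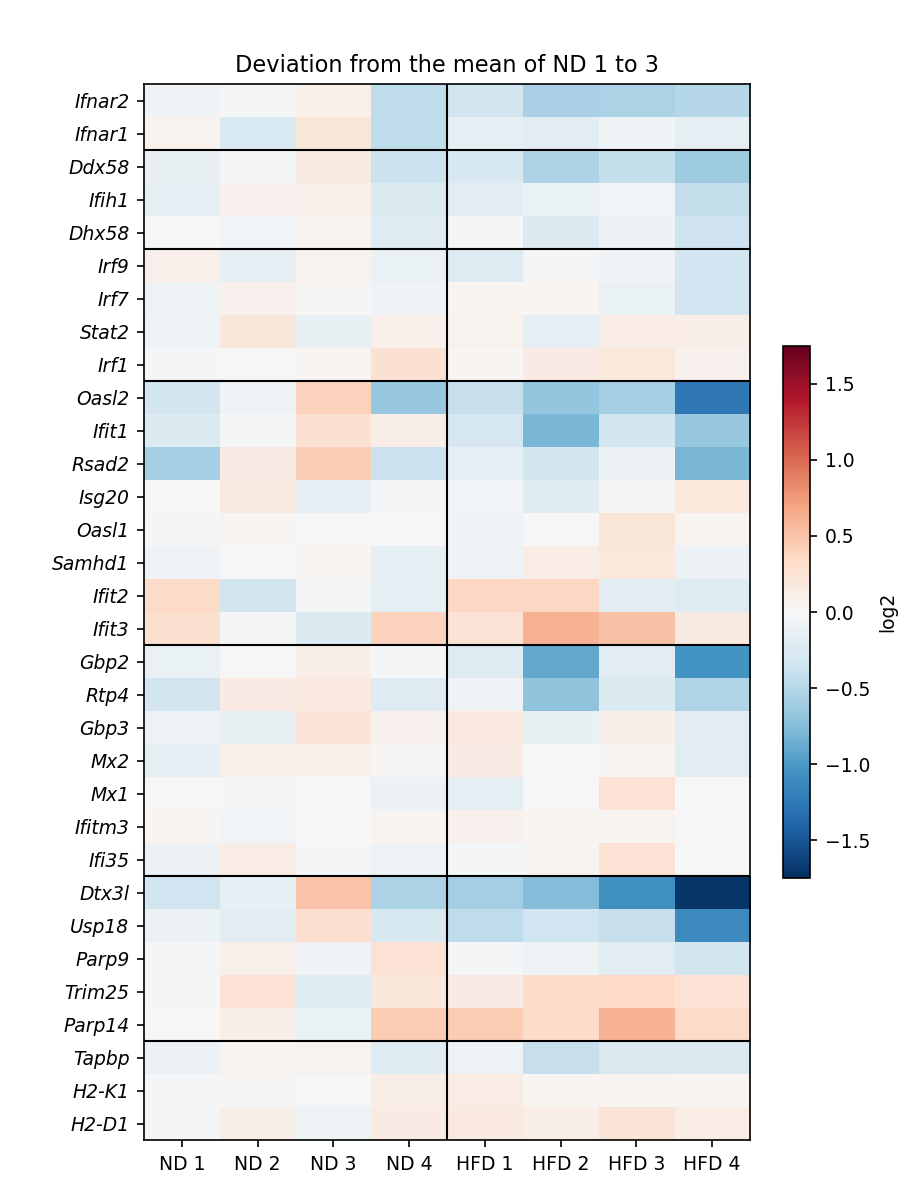
Deviation of each of the 32 genes from its mean over ND 1 to 3 on the log2 scale, with all 8 arrays in columns (ND 4 included), genes in rows, roles parted by black lines, red for higher and blue for lower. HFD 4 holds the deepest blue, for Dtx3l, Oasl2 and Usp18, and rows of both colours occur among the effectors.

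Of the 7 arrays, ND 3 was most often the highest and HFD 4 most often the lowest. The median difference of the 32 genes was −0.06 without ND 3 and −0.05 without HFD 4, against −0.05 with all 7 arrays. ND 3 was the highest of the 7 arrays in 14 of the 32 genes, against 17% of all genes, and HFD 4 was the lowest in 14, against 11.1%. The median deviation of the 32 genes from the ND mean was −0.06, 0.01 and 0.06 in ND 1, 2 and 3, −0.05, −0.10 and −0.05 in HFD 1, 2 and 3 and −0.20 in HFD 4. For ND 4 it was −0.07, and 19 of the 32 genes were below the ND mean on that array, against 42.5% of all genes.

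In antigen presentation 0 of the 3 measured genes passed. In limma, 1 was lower (33.3%, against 9.83% of all genes) and 1 higher (33.3%, against 12.3%) at an unadjusted p under 0.05. Tapbp, which encodes tapasin, the bridge between the peptide transporter and MHC class I, was at 11.65, 11.80 and 11.82 in ND and at 11.67, 11.36, 11.50 and 11.50 in HFD. HFD 1 lay just above ND 1, ND 4 lay within the HFD range at 11.53, and the difference was −0.25 (SE 0.08, limma adjusted p = 0.103), with −0.22 (SE 0.08) on its other probe set. Without HFD 1 Tapbp passed (−0.30, limma adjusted p = 0.0497), the only 1 of 18 alternatives in which it did. Its difference was −0.12 with the keratinocyte covariate and −0.15 with the 3′ minus 5′ covariate (limma adjusted p = 0.496 and 0.999). H2-D1, a classical class I heavy chain, was at 12.51, 12.63 and 12.44 in ND and at 12.70, 12.64, 12.75 and 12.65 in HFD, with no overlap among these 7 arrays and a difference of 0.16 (SE 0.06, limma adjusted p = 0.148). ND 4, at 12.67, lay within the HFD range of H2-D1. H2-K1 was between 12.98 and 13.02 in ND and between 13.03 and 13.13 in HFD, so these arrays did not overlap, though by 0.01 at the closest, and ND 4 lay within the HFD range at 13.11, with a difference of 0.06 (SE 0.05, limma adjusted p = 0.476).

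H2-K1 and H2-D1 are near-identical paralogs, so their probe sets can cross-hybridise and their split is uncertain. The 4 other probe sets of H2-D1 differed by −0.06 to 0.13 and the 3 others of H2-K1 by 0.09 to 0.17. Of 5 probe sets that name both genes together with LOC547349, 1 was higher in HFD, at 11.69, 11.89 and 11.45 in ND 1, 2 and 3 and at 12.15, 12.16, 12.15 and 12.07 in HFD 1 to 4. All its HFD arrays lay above ND, by 0.46 (SE 0.09, limma adjusted p = 0.0345 over all probe sets). That p was 0.0513, 0.105, 0.0756, 0.0896 and 0.0918 without ND 1, ND 3, HFD 2, HFD 3 or HFD 4, and 0.202 with ND 4, which lay at the lower edge of the HFD range at 12.07 (limma). With the 3′ minus 5′ covariate the difference of this probe set was 0.15 (limma adjusted p = 0.999), and with the keratinocyte covariate it was 0.49 (limma adjusted p = 0.128). The other 4 shared probe sets differed by 0.16, 0.00, 0.14 and 0.18 and did not pass.

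Beyond the 32 genes, 86 of 97 other genes of the pathway were measured, and 4 fell and 1 rose (5.81%, against 5.35% of all genes). At an unadjusted p under 0.05, 15 were lower (17.4%, against 9.83% of all genes) and 11 higher (12.8%, against 12.3%). The falls were all among 33 other interferon-stimulated genes (12.1%, against 2.73% of all genes that passed lower). Of these 33 genes, 23 differed downward (69.7%, against 43.8% of all genes), with a median of −0.16. Parp10, an ADP-ribosyltransferase, was at 9.82, 9.95 and 10.13 in ND 1, 2 and 3 and at 9.52, 9.36, 9.28 and 9.02 in HFD 1 to 4, without overlap (−0.67, SE 0.12, limma adjusted p = 0.0253). Gbp7, a guanylate-binding GTPase, was at 10.25, 10.45 and 10.40 in ND and at 9.82, 9.36, 10.10 and 9.29 in HFD (−0.72, SE 0.18, limma adjusted p = 0.0452). It shows the same low HFD 2 and HFD 4 as Gbp2, and its other probe set differed by −0.65 (SE 0.19). The glycan-binding protein Lgals9 fell by 0.45 (SE 0.11, limma adjusted p = 0.0402). The secreted protein Lgals3bp fell by 0.72 (SE 0.18, limma adjusted p = 0.0486), with HFD 1 reaching into the ND range. The limma adjusted p was above the threshold without ND 3, HFD 3 or HFD 4 in each of these 4 genes, at 0.10, 0.068 and 0.07 for Parp10, 0.163, 0.0566 and 0.11 for Gbp7, 0.158, 0.0962 and 0.0963 for Lgals9 and 0.203, 0.119 and 0.12 for Lgals3bp. It was also above it without ND 2 or HFD 2 for Gbp7 (0.107 and 0.0954), Lgals9 (0.0666 and 0.0542) and Lgals3bp (0.118 and 0.105), and without ND 1 for Gbp7 (0.0642) and Lgals9 (0.0587). ND 4 lay within the HFD range for Parp10 (9.37), Lgals9 (10.05) and Lgals3bp (9.25) and between the diets for Gbp7 (10.13). With ND 4 in the fit the limma adjusted p was 0.183 for Parp10, 0.184 for Lgals9, 0.154 for Gbp7 and 0.261 for Lgals3bp. With the 3′ minus 5′ covariate the differences were −0.43, −0.29, −0.39 and −0.39 in the same order (limma adjusted p = 0.999 for each).

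The gene that rose was Tbk1, the kinase that activates Irf3 downstream of the sensors. It was at 6.41, 6.45 and 6.27 in ND 1, 2 and 3 and at 6.76, 6.69, 6.73 and 6.88 in HFD 1 to 4, all above ND (0.39, SE 0.08, limma adjusted p = 0.0315). Its dimmer probe set differed by 0.24 (SE 0.06). Without ND 3, HFD 2, HFD 3 or HFD 4 the adjusted p of Tbk1 was 0.13, 0.0563, 0.0748 and 0.0928 in limma, and 0.251 with ND 4, which lay within the HFD range at 6.82. With the 3′ minus 5′ covariate the difference was 0.23 (limma adjusted p = 0.999). In the same list of 13 measured sensing genes, the adaptor Ticam1 differed by −0.29 (SE 0.09) and the receptor Tlr3 by 0.34 (SE 0.11), and neither passed.

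No other pathway list held a gene past the threshold in limma. The 6 measured interferon genes, Ifna1, Ifna2, Ifna4, Ifna5, Ifnb1 and Ifng, differed by −0.07 to 0.21 (0 lower and 1 higher at an unadjusted p under 0.05, or 16.7% higher, against 12.3% of all genes). Of these, 5 were below the median gene level of 6.77, and the largest difference was that of Ifna5 (0.21, SE 0.09), followed in p by Ifna2 (−0.07, SE 0.05) and Ifna4 (−0.05, SE 0.04). Of 12 receptor, kinase and inhibitor genes 3 were lower (25%, against 9.83% of all genes) and 2 higher (16.7%, against 12.3%) at that p. The kinase Jak2 differed by 0.35 (SE 0.09, limma adjusted p = 0.053) and the inhibitor Socs1 by −0.27 (SE 0.09, limma adjusted p = 0.0928), both without overlap between the diets, and the interferon gamma receptor chain Ifngr2 by −0.41 (SE 0.13). Of 14 genes of class I processing 1 was lower (7.14%, against 9.83% of all genes) and 2 higher (14.3%, against 12.3%) at that p, near the shares of all genes. These were the chaperone calreticulin (Calr, −0.31, SE 0.10) and the nonclassical class I chains H2-T23 (0.29, SE 0.09) and H2-M3 (0.41, SE 0.14). Of 8 genes of MHC class II, 7 differed upward (median 0.16, with 12.5% below 0, against 43.8% of all genes). At an unadjusted p under 0.05 in limma, 2 were higher (25%, against 12.3% of all genes). They were the protease Ctss (0.48, SE 0.20) and H2-Ab1 (0.40, SE 0.17), with H2-Aa next (0.21, SE 0.10). Ctss and H2-Ab1 were highest in HFD 1, at 6.19 and 9.16.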

How the data were processed

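The authors deposited RMA values on a log2 scale for 8 arrays and 45141 probe sets, made with the affy package per the submitters' processing notes (versions not given in the sources used here). Array quartiles lay within 0.04 log2 of each other, so a shift in total RNA cannot be seen in these values. Detection calls were not used. Of the probe sets, 28898 name 1 gene, 551 several and the rest none in the platform annotation. For 28689 of those naming 1 gene the Entrez identifier was found in RefSeq (GRCm38.p6, names only), and the symbol given there was used. Each gene was represented by its probe set with the highest mean over ND 1 to 3 and HFD 1 to 4.

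The comparison was fitted over 17097 genes in limma 3.58.1 (R 4.3.3, lmFit and eBayes with trend, 10.3 total degrees of freedom), and over all probe sets for the others of a gene. Adjusted p-values are Benjamini-Hochberg over all features. The fit was tested on simulated data. Full values were given for genes past 0.05, the 12 members of smallest p and the smallest of each role, and for pathway lists for genes past 0.05 and up to 3 of smallest p. The members and lists were chosen with earlier results of these data known. No 2 arrays were duplicates (SD of their difference at least 0.165), and the number of arrays limits precision. The alternatives were other arrays, a replicate block, dim genes left out, other normalization, eBayes settings, array weights, probe set averaging, covariates and thresholds. Figures were drawn with matplotlib 3.10.9.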

Additional observations from a re-analysis of the deposited data

Results flagged for a closer look

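Among the 4 HFD arrays, 1 of the 32 measured genes had an array far from the others by Dixon's criterion, where chance flags about 1 in 20 groups. This was Usp18, at 6.87 in HFD 4 and between 7.54 and 7.64 in the other HFD arrays, a gap of 0.87 of the whole range. Without HFD 4 its difference was −0.40 (limma adjusted p = 0.162).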

How the results depend on the processing

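The 4 calls among the 32 genes became 0 with all 8 arrays, with the specimen number as a block, with probe sets averaged and with either covariate (limma, 9, 9, 10, 2 and 8 genes at an unadjusted p under 0.05 in that order), 7 at an adjusted p of 0.10 and 13 at an unadjusted p of 0.05. Leaving out 1 array gave 0 to 4. The count over all genes, 914 in the report, was 6 with all 8 arrays, 1387 without genes below the median level, 400 with probe sets averaged, 0 with the 3′ minus 5′ covariate (limma, 604 at an unadjusted p under 0.05), 18 with the keratinocyte covariate, 1947 and 3777 at the looser thresholds, and 6 to 1072 when 1 array was left out. Same-numbered arrays did not deviate together (correlations of −0.182, −0.291 and −0.0526 for specimens 1, 2 and 3), so the numbers were not taken as pairs, and with the replicate block the count was 0 among the 32 genes and 1 over all genes. The median of the 32 genes was −0.11 to 0.01 over the alternatives that kept them all, above 0 with the 3′ minus 5′ covariate only, and −0.15 over the 27 genes at or above the median level. Over 18 alternatives, the 4 genes that passed kept the call in 27 of 72 values and lost it in 45. Of 162 values of 9 genes that did not pass, 3 passed and 1 turned direction (Trim25, −0.05 with the 3′ minus 5′ covariate). The cause of these changes was not tested. Low signal limits Oasl1, Mx1 and Gbp3.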
